A study of Mus musculus with 6 samples.

Results

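The EGF family ligands and the ErbB receptors they bind were examined in the cerebellum of mice that lack Galnt17. The 10 genes were given as a list, of 55487 genes counted in all, and comprise 3 ligands of the EGF receptor (Hbegf, Tgfa and Btc), 3 neuregulins (Nrg1, Nrg2 and Nrg3) and the 4 receptors (Egfr, Erbb2, Erbb3 and Erbb4). RNA was sequenced from whole cerebella of male mice aged 14 days, 1 library per animal, from 3 homozygous Galnt17 knockouts (KO; allele Galnt17tm1.1(KOMP)Vlcg, Wbscr17-/- in the older name) and, as wild type (WT), 3 B6C3 mice, which descend from a cross of C57BL/6J and C3H/He. Galnt17 encodes an enzyme of the family that starts mucin-type O-glycosylation. Per the labels, the allele was not viable when homozygous on C57BL/6, and live homozygotes were obtained by crossing to B6C3 animals. Nothing in the labels says how much of each strain's genome an animal carried, or whether KO and WT mice were littermates. The members were chosen by their pathway and with the CPM and calls of this same comparison known, among them that of Hbegf, so the differences between KO and WT that follow for its members are descriptions and not independent evidence, whatever their p.

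EGF family ligands are made as membrane-anchored precursors and are released by proteases of the ADAM family. Each carries an EGF-like domain with 6 cysteines that pair into disulphide bridges and that binds the receptor. HB-EGF and betacellulin bind EGFR and ErbB4, TGF-alpha binds EGFR, and the neuregulins bind ErbB3 and ErbB4, while ErbB2 has no ligand of its own and acts as a partner of the others. Bound receptors pair, phosphorylate each other and signal through the kinases ERK and AKT. In the cerebellum, neuregulins and ErbB4 are known from granule cells and interneurons, EGFR from glia and dividing precursors, and ErbB3 from the oligodendrocyte lineage.

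The domain that makes the ligands 1 family is given here as coding bases of the GENCODE M21 transcripts (GRCm38), with the 6 cysteine codons in capitals. They were found by the spacing of the 6 cysteines in the translated transcripts of all 6 ligand genes. Nrg1 had 2 forms, of which the first was in 7 and the second in 3 of its 10 complete coding transcripts, and they part after the fifth cysteine codon, where the beta and alpha types of neuregulin 1 are known to differ. Gene counts add both forms together.
Tgfa (chromosome 6, plus strand): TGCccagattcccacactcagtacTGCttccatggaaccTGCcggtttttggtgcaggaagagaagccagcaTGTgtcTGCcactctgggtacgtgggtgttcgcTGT
Btc (chromosome 5, minus strand): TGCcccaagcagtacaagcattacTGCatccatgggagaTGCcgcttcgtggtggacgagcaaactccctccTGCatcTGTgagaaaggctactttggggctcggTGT
Nrg1, the first form (chromosome 8, minus strand): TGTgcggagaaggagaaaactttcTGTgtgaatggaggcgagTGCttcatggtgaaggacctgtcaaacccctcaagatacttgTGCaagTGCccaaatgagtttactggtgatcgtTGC
Nrg1, the second form: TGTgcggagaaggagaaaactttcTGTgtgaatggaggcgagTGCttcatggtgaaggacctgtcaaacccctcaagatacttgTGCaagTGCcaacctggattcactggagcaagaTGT
Nrg3 (chromosome 14, minus strand): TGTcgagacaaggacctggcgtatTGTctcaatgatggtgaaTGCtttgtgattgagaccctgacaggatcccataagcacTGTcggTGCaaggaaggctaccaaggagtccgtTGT
The domain spans 36 residues in Hbegf, Tgfa and Btc, 37 in Nrg2, 39 in Nrg3 and 40 in Nrg1. Identity was taken over all aligned positions with gaps counted, which lowers it for domains of unequal length. That of Hbegf was identical to Btc at 55.6% of these positions, to Tgfa at 44.4%, to Nrg3 at 42.5%, to Nrg2 at 40.5% and to the first form of Nrg1 at 37.5%. Nrg1 and Nrg2 shared 47.5%, more than Nrg2 and Nrg3 shared (35.9%).

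Reads counted in genes numbered 20049223 to 29840046 in KO and 17111611 to 24120704 in WT libraries. Levels are in CPM, for which TMM scaling sets each library's counts to the same effective size. Galnt17 itself, which checks the labels, had 72, 80 and 63 reads in KO and 1119, 729 and 963 reads in WT. It was at 2.99 ± 0.526 CPM in KO and 45.3 ± 2.21 CPM in WT (SD, n = 3 each), with no overlap between the groups. Genes of granule cells (summed CPM of 10 markers 5871 to 6014 in KO and 5483 to 5965 in WT), of Purkinje cells and of Bergmann glia were abundant in every library. The KO libraries were closer to each other than the WT libraries were (among genes above 10 CPM, log2 CPM had a median SD of 0.05 in KO and 0.10 in WT). Of 9 Purkinje cell markers 3 were higher (Pcp2, Car8 and Gng13) and 0 lower. Their sums were 4543 to 4757 CPM in KO and 3691 to 4037 CPM in WT. Of 9 interneuron markers 1 was lower (Slc6a5) and 0 higher, while 7 had a positive log2 fold change. Interneuron sums were 1394 to 1478 CPM in KO and 1287 to 1356 CPM in WT. edgeR made 0 calls among markers of granule cells (1 higher at an unadjusted p under 0.05), microglia (0), endothelial and mural cells (1 lower), meninges (2 higher) or, with 2 of 8 tested, brainstem and Schwann cells (0). Unmapped reads made up 13.8% to 17.2% of reads in KO and 6.52% to 10.03% in WT, a difference with an exact permutation p of 0.1, the smallest that 3 against 3 can give. Of 18237 genes tested with edgeR's quasi-likelihood test, 143 were higher and 159 lower in KO, which is 0.784% and 0.872% (1.66% together), at a Benjamini-Hochberg adjusted p below 0.05 over all genes. Without WT replicate 1, the WT library whose removal moved the count most, 959 were higher and 962 lower.

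Among the 10 members, Hbegf was lower in KO, and no other member passed. The fit tested 9 of them, since Btc did not reach the filter on low counts, and called 0 higher and 1 lower, beside 0.784% and 0.872% of all genes (1.66% in either direction). Without WT replicate 1 the count of members lower stayed at 1, beside 5.24% of all genes. The members were listed with this contrast known, and nothing is read from their count. The groups did not overlap in 4 of the 9 (Hbegf and Nrg1 with KO below WT, Nrg2 and Erbb3 with KO above WT), as in 23.7% of all genes tested. The log2 fold changes of the members (KO over WT) ran from -0.64 to 0.20 with a median of -0.09, beside -0.01 over all genes tested.

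**Figure D1:**
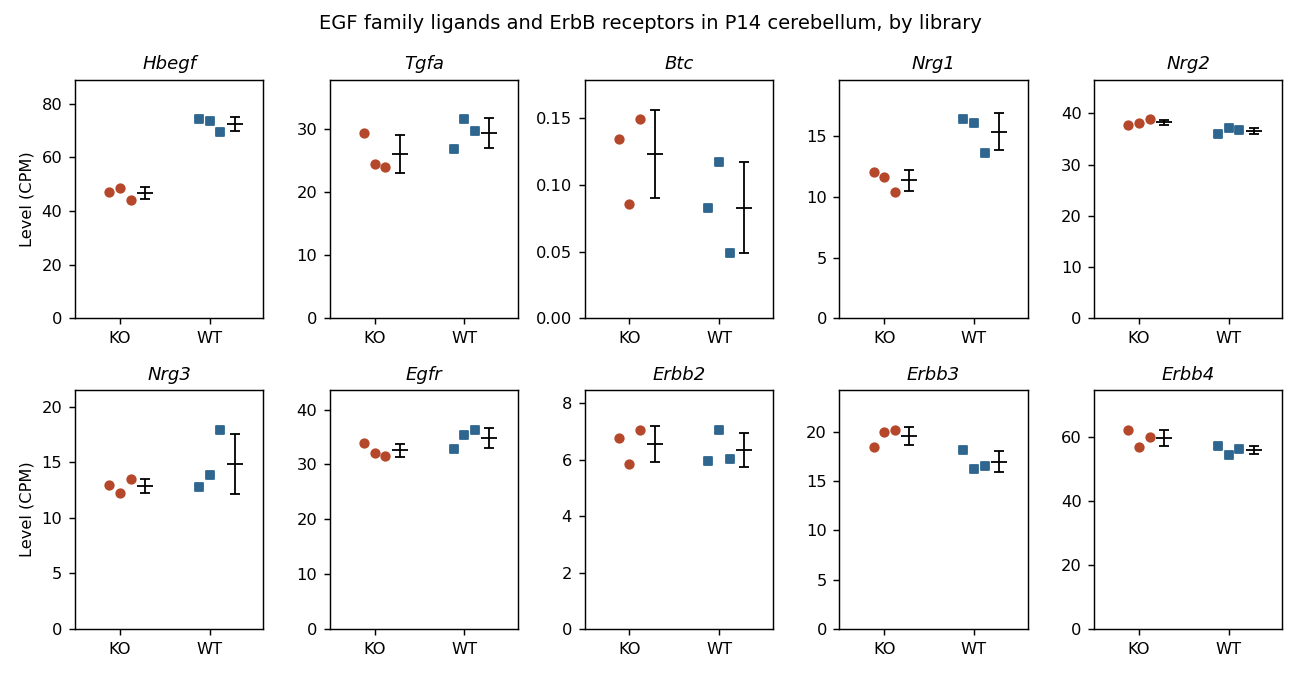
Level of each member (CPM, y axis from 0, scaled per gene) in the 3 KO (circles) and 3 WT (squares) libraries, with the mean and SD beside each group. The KO libraries lie between 44.2 and 48.6 CPM for Hbegf and the WT libraries between 69.5 and 74.1 CPM, while the groups of Tgfa, Btc, Nrg3, Egfr, Erbb2 and Erbb4 overlap.

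Hbegf, the gene of heparin-binding EGF-like growth factor (ENSMUSG00000024486), lies on the minus strand of chromosome 18 at 36504927 to 36515805 (GRCm38). KO replicates 1 to 3 held 1401, 1131 and 891 of its reads, or 46.9, 48.6 and 44.2 CPM. WT replicates 1 to 3 held 1790, 1256 and 1430, or 74.1, 73.7 and 69.5 CPM. The 3 KO libraries lay close together and all below the lowest WT library. The means were 46.6 ± 2.21 CPM in KO and 72.4 ± 2.55 CPM in WT (SD, n = 3 each). The log2 fold change was -0.64 (SE 0.06, 95% interval -0.76 to -0.51, adjusted p = 0.000367), which is 1.55-fold lower in KO. It stood in place 24 of all genes tested by p, and 112 of the genes called lower had a larger reduction in fold. It was called whichever library was left out (adjusted p = 0.000217 to 0.00532, log2 fold change -0.67 to -0.60).

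Tgfa, which encodes transforming growth factor alpha (chromosome 6, 86195223 to 86275719), was at 29.4, 24.5 and 24.03 CPM in KO and 26.8, 31.5 and 29.7 CPM in WT. The groups overlapped, since KO replicate 1 lay above WT replicate 1. The log2 fold change was -0.17 (SE 0.10, 95% interval -0.38 to 0.05, adjusted p = 0.391). A reduction as large as that of Hbegf lies outside this interval. Btc, the betacellulin gene (chromosome 5, 91357261 to 91402994), was covered by 4, 2 and 3 reads in KO and by 2, 2 and 1 reads in WT, so that no library held more than 4. A difference was not detectable at this depth.

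Nrg1, the gene of neuregulin 1, the ligand with the most annotated transcripts of the set (18; chromosome 8, 31814551 to 32884029), was covered by 360, 272 and 209 reads in KO and by 396, 275 and 280 reads in WT. Scaled to library size these were 12.1, 11.7 and 10.4 CPM in KO and 16.4, 16.1 and 13.6 CPM in WT. Each KO library was below each WT library. The means were 11.4 ± 0.886 CPM in KO and 15.4 ± 1.54 CPM in WT (SD, n = 3 each), with a log2 fold change of -0.43 (SE 0.11, 95% interval -0.67 to -0.19). It did not pass after adjustment over all genes (adjusted p = 0.0865). It passed without WT replicate 3 (adjusted p = 0.0397, where 0.899% of all genes were lower), under the exact test of edgeR (adjusted p = 0.0266, where 2.22% were) and with no filter on low counts (adjusted p = 0.0117, where 2.45% were), and its adjusted p over all alternatives ran from 0.0117 to 0.282. Its exons share 482 bases with a lincRNA gene, Gm26578, on the opposite strand. Counting without strand cannot tell reads of the shared bases apart, and ambiguous reads were left out. Exons of Tgfa share 118 bases with Gm43917 and those of Erbb2 share 9 with Mien1, also on the opposite strand.

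No reduction was called for the other neuregulins. Nrg2, whose product is close to neuregulin 1 (chromosome 18, 36017652 to 36197380), was at 37.8, 38.2 and 38.8 CPM in KO and 35.9, 37.1 and 36.7 CPM in WT. Each KO library was slightly above each WT library, and the log2 fold change was 0.07 (SE 0.06, 95% interval -0.06 to 0.19, adjusted p = 0.581). Nrg3, a neuregulin that binds ErbB4 (chromosome 14, 38368952 to 39473088), was at 12.97, 12.2 and 13.5 CPM in KO and 12.8, 13.8 and 17.9 CPM in WT. WT replicate 3 stood above the other libraries, and the groups overlapped (log2 fold change -0.20, 95% interval -0.49 to 0.08, adjusted p = 0.437).

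The receptor genes differed less than Hbegf. Egfr, the receptor of HB-EGF and TGF-alpha (chromosome 11, 16752203 to 16918158), was at 33.98, 32.1 and 31.6 CPM in KO and 32.8, 35.4 and 36.3 CPM in WT. The groups overlapped, and the log2 fold change was -0.09 (SE 0.07, 95% interval -0.24 to 0.06, adjusted p = 0.498). Erbb2, the partner receptor without a ligand (chromosome 11, 98412470 to 98437716), was at 6.77, 5.85 and 7.05 CPM in KO and 5.96, 7.04 and 6.03 CPM in WT, again overlapping. Its log2 fold change was 0.05 (95% interval -0.26 to 0.36, adjusted p = 0.879), and -0.00271 without KO replicate 3. Erbb4, a neuregulin receptor with an active kinase (chromosome 1, 68032186 to 69108059), was at 62.0, 56.9 and 59.8 CPM in KO and 57.1, 54.4 and 56.1 CPM in WT, where the lowest KO library fell just within the WT range. Its log2 fold change was 0.09 (95% interval -0.03 to 0.22, adjusted p = 0.412).

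Erbb3, a neuregulin receptor whose kinase is nearly inactive and which signals through its partners (chromosome 10, 128567523 to 128589652), was at 18.5, 19.9 and 20.2 CPM in KO and 18.2, 16.3 and 16.5 CPM in WT. Each KO library was above each WT library, though KO replicate 1 and WT replicate 1 were close. The log2 fold change was 0.20 (SE 0.09, 95% interval 0.01 to 0.39), and the gene did not pass after adjustment (adjusted p = 0.265, and 0.0960 to 0.550 with any 1 library left out). Of 10 markers of oligodendrocytes, cells in which Erbb3 is known to be expressed, 3 were higher and 0 lower, and their summed level was 13818 to 14473 CPM in KO and 12521 to 12657 CPM in WT, with no marker at 0. Of 8 markers of their precursors 0 were called by edgeR, with sums of 675 to 705 CPM in KO and 710 to 862 CPM in WT. At an unadjusted p under 0.05, 0 of the 8 were higher and 4 lower, beside 8.57% and 8.99% of all genes tested. The part of these cells in the level of Erbb3 was not tested. In whole tissue, fewer cells of a type and less RNA per cell cannot be told apart.

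**Figure D2:**
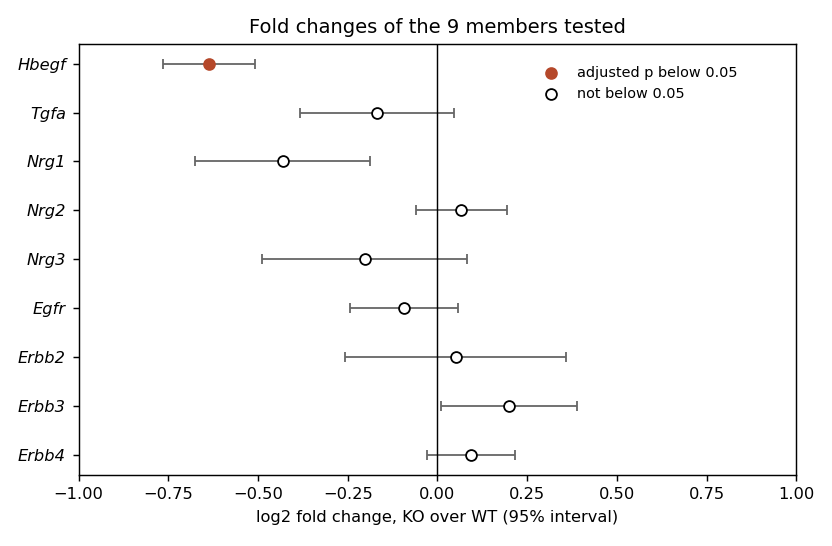
Log2 fold change of KO over WT (x axis) with its 95% interval for the 9 members tested by edgeR. Hbegf (filled, -0.64) passed at an adjusted p below 0.05; the intervals of Nrg1 (-0.67 to -0.19) and Erbb3 (0.01 to 0.39) leave out 0, but these genes did not pass after adjustment.

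Compared per exon length, as TPM (counts divided by exon length and scaled to the same sum in each library), Hbegf was at 36.2 ± 1.67 TPM in KO and 55.1 ± 3.02 TPM in WT, and Nrg2 at 45.8 ± 0.805 TPM in KO and 42.8 ± 0.615 TPM in WT (SD, n = 3 each). Nrg2 was thus the most abundant member in KO and Hbegf in WT, and in neither group did the libraries of these 2 genes overlap. With the length of the longest transcript in place of all exons, Hbegf came first in both groups (47.2 TPM in KO and 71.8 TPM in WT), ahead of Nrg2 (36.7 TPM in KO and 34.3 TPM in WT). Erbb4 (18.1 TPM in KO and 16.6 TPM in WT) was the most abundant receptor in both groups; its libraries overlapped those of Tgfa in WT and not in KO. Erbb3 was at 12.2 ± 0.6204 TPM in KO and 10.4 ± 0.863 TPM in WT, and Egfr at 10.8 ± 0.366 TPM in KO and 11.3 ± 0.342 TPM in WT. The libraries of Erbb3 and Egfr overlapped in WT and stood apart in KO, with Erbb3 higher. At the low end of this scale, Erbb2 and Nrg1 overlapped in both groups, at 4.73 and 4.13 TPM in KO and at 4.47 and 5.47 TPM in WT. Tgfa lay near Erbb4 (15.04 TPM in KO and 16.6 TPM in WT) and Nrg3 below Egfr and Erbb3 (7.10 TPM in KO and 7.97 TPM in WT). These places depend on the length used. With the longest transcript, Nrg3 (9.40 TPM in KO and 10.56 TPM in WT) was above Egfr (9.34 TPM in KO and 9.76 TPM in WT), and in WT also above Erbb3 (9.51 TPM in KO and 8.08 TPM in WT). On that scale Nrg1 (6.15 TPM in KO and 8.14 TPM in WT) was above Erbb2 (3.83 TPM in KO and 3.62 TPM in WT), and Tgfa (16.8 TPM in KO and 18.5 TPM in WT) above Erbb4 (14.5 TPM in KO and 13.3 TPM in WT). Erbb4 stayed the first receptor and Btc the last member on both scales.

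Summed within each role, the EGF receptor ligands were at 53.3, 52.1 and 48.6 TPM in KO and 73.3, 73.7 and 68.3 TPM in WT, so the groups did not overlap. The 3 neuregulins together were at 56.5, 56.7 and 57.9 TPM in KO and 56.1, 56.4 and 56.3 TPM in WT. The KO libraries lay just above the WT libraries on this scale, but the groups overlapped with the longest transcript (51.9 to 52.8 TPM in KO and 52.5 to 53.5 TPM in WT), and in CPM the KO libraries lay below (62.1 to 62.9 CPM in KO and 65.1 to 68.2 CPM in WT). No direction is therefore given for the neuregulins together. The 4 receptors together were at 46.3, 44.7 and 46.5 TPM in KO and 43.9, 42.4 and 41.9 TPM in WT. The KO libraries were above the WT libraries with either length, and in CPM the groups touched (114.8 to 121 CPM in KO and 113.0 to 114.9 CPM in WT). The EGF receptor ligands were lower in each KO library than in each WT library on all 3 scales (60.6 to 66.4 TPM in KO and 86.3 to 92.5 TPM in WT with the longest transcript, 68.4 to 76.5 CPM in KO and 99.3 to 105.3 CPM in WT). This sum mostly repeats Hbegf (36.2 TPM in KO and 55.1 TPM in WT), which was listed with its call known. The groups of Tgfa and Btc overlapped, so no fall of the ligands as a class is read from it.

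**Figure D3:**
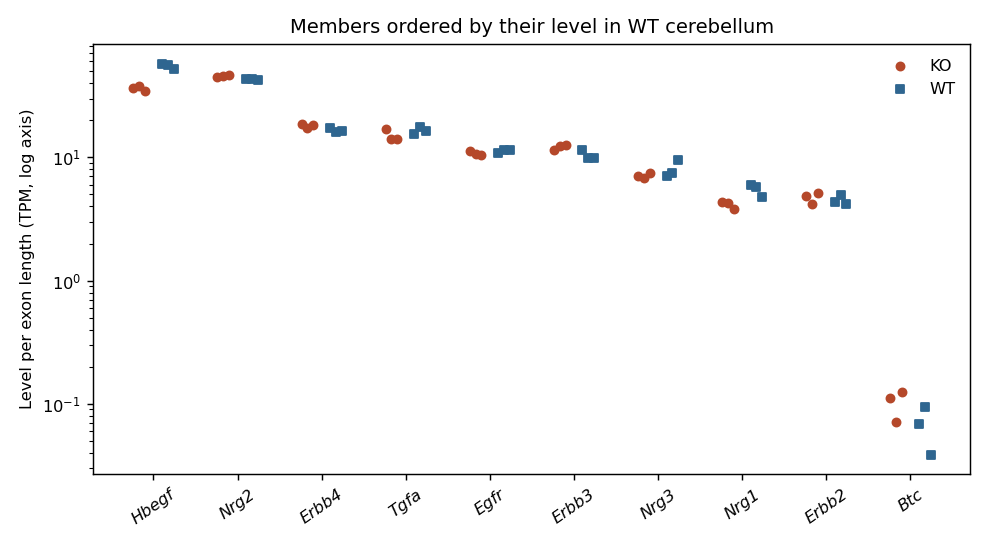
Level per exon length (TPM, log axis) of each member in the 3 KO (circles) and 3 WT (squares) libraries, ordered by the WT mean. Hbegf and Nrg2 lead the order in both groups, at 36.2 and 45.8 TPM in KO and 55.1 and 42.8 TPM in WT, and Btc is last, at 0.102 TPM in KO and 0.0676 TPM in WT.

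Of the 5 EGF family ligands that are no members, 2 had enough reads to be tested and 0 were called by edgeR (0 at an unadjusted p under 0.05 and 0 under any of the 12 alternatives). Egf, the epidermal growth factor gene, was at 3.07 ± 0.283 CPM in KO and 3.72 ± 0.777 CPM in WT (adjusted p = 0.482). Nrg4, which encodes a ligand of ErbB4, was at 3.23 ± 0.426 CPM in KO and 2.68 ± 0.751 CPM in WT (adjusted p = 0.603). Areg and Epgn, the amphiregulin and epigen genes, had at most 5 counts in any library. Ereg, the epiregulin gene, had 0 counts in all 6 libraries, which allows a level of up to 0.101 to 0.149 CPM in the KO libraries and 0.124 to 0.176 CPM in the WT libraries (3 counts each, counting error only).

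None of the 19 genes of ligand release was called by edgeR (unadjusted p under 0.05: 2 higher, 0 lower, beside 8.57% and 8.99% of all genes tested). This list holds genes of the ADAM family whether or not they cut ligands, iRhom proteins, beta-secretases, proprotein convertases and a few cofactors and inhibitors. Their median log2 fold change was 0.05. Adam17, the main sheddase of HB-EGF and TGF-alpha, was in the list and not called. The 3 with the smallest p were Adam15, a membrane metalloprotease gene, at 49.97 ± 2.80 CPM in KO and 42.2 ± 2.62 CPM in WT (adjusted p = 0.113), Pcsk6, a proprotein convertase gene, at 79.8 ± 7.40 CPM in KO and 68.2 ± 2.37 CPM in WT (adjusted p = 0.141), and Rhbdf1, which encodes iRhom1, at 39.4 ± 2.45 CPM in KO and 36.1 ± 1.48 CPM in WT (adjusted p = 0.367). Adam15 passed without WT replicate 1 (adjusted p = 0.0300), under the exact test (adjusted p = 0.0490) and with no filter on low counts, and Pcsk6 with no filter only.

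Of 21 genes that restrain or degrade the receptors, 0 were called by edgeR, with a median log2 fold change of -0.04. At an unadjusted p under 0.05 there were 1 higher and 4 lower, beside 8.57% and 8.99% of all genes tested. Nedd4, a ubiquitin ligase gene, was at 649.8 ± 5.12 CPM in KO and 783 ± 63.1 CPM in WT (log2 fold change -0.27, adjusted p = 0.0868), and DESeq2 called it lower (adjusted p = 0.00452). Ptprj, a receptor tyrosine phosphatase gene, was at 114.9 ± 5.39 CPM in KO and 131 ± 6.31 CPM in WT (adjusted p = 0.136). Stam2, an endosomal sorting gene, was at 41.97 ± 0.979 CPM in KO and 47.3 ± 0.907 CPM in WT (adjusted p = 0.152).

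Of 35 adaptor, kinase and co-receptor genes, 0 were called by edgeR, with a median of -0.02. At an unadjusted p under 0.05 there were 0 higher and 7 lower, beside 8.57% and 8.99% of all genes tested. Cd9, a tetraspanin gene whose product associates with the HB-EGF precursor at the membrane, was at 105.8, 96.3 and 94.6 CPM in KO and 118.6, 123.7 and 112.8 CPM in WT. The groups did not overlap, and the log2 fold change was -0.26 (SE 0.06, adjusted p = 0.0708, called in 5 of 12 alternatives). Pik3cb, a PI3 kinase subunit gene, was at 23.1 ± 1.76 CPM in KO and 27.1 ± 0.717 CPM in WT (adjusted p = 0.165).

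Among 24 genes known to respond to ERK signalling, 23 were tested, 1 fell and 0 rose. At an unadjusted p under 0.05 there were 1 higher and 9 lower, beside 8.57% higher and 8.99% lower of all genes tested. The KO libraries lay below the WT libraries in 9 of the 23 and above them in 1, beside 12.2% and 11.5% of all genes. The median log2 fold change was -0.18, against -0.01 over all genes, with 18 of 23 negative. These values describe the list, and no test of the list was made. It was fixed with results of this comparison known, and it includes immediate early genes such as Fos, whose levels ran from 6.47 to 33.6 CPM within the KO group alone and from 19.0 to 30.7 CPM in WT.

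Etv5, an ETS factor gene induced by receptor tyrosine kinase signalling (ENSMUSG00000013089, chromosome 16, 22381309 to 22439719, minus strand), was the 1 that fell. It was at 70.8, 72.9 and 74.1 CPM in KO and 92.5, 96.0 and 85.0 CPM in WT. The groups were well apart, and the log2 fold change was -0.33 (SE 0.06, 95% interval -0.46 to -0.20, adjusted p = 0.0232), which is 1.25-fold lower. The call was lost without KO replicate 1 (adjusted p = 0.143), KO replicate 2 (0.139), KO replicate 3 (0.0986) or WT replicate 2 (0.0917).

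Spry4, a feedback inhibitor gene of the Sprouty family, lies on chromosome 18 (38586247 to 38601415), as Hbegf does. It was at 16.3, 16.2 and 19.4 CPM in KO and 22.4, 26.0 and 22.3 CPM in WT. Each KO library was below each WT library, and the gene narrowly missed the threshold (log2 fold change -0.45, SE 0.10, adjusted p = 0.0590). It was called in 5 of 12 alternatives, among them DESeq2 (adjusted p = 0.0116) and limma-voom (adjusted p = 0.0493). Dusp5, which encodes a nuclear phosphatase of ERK, was at 85.2, 92.5 and 100.7 CPM in KO and 112.4, 130.4 and 103.2 CPM in WT. The groups did not overlap, though KO replicate 3 and WT replicate 3 were close (log2 fold change -0.31, SE 0.09, adjusted p = 0.113, called in 4 of 12 alternatives).

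**Figure D4:**
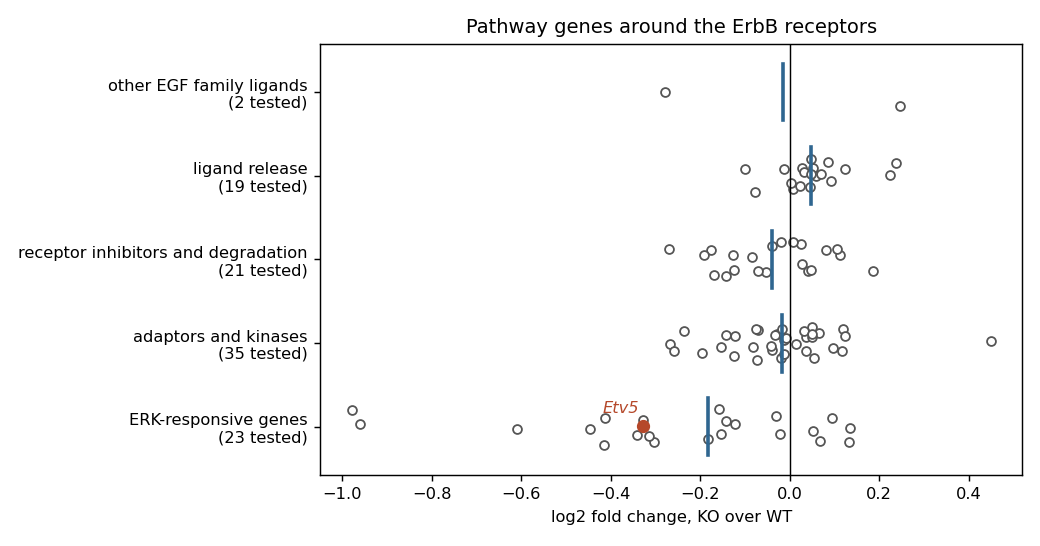
Log2 fold change of KO over WT (x axis) of each tested gene of the 5 pathway lists, with the list's median as a vertical bar and vertical scatter for legibility only. Etv5 (filled, -0.33) is the 1 gene that passed; the median is -0.18 for ERK-responsive genes and between -0.04 and 0.05 for the other lists.

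**Figure D5:**
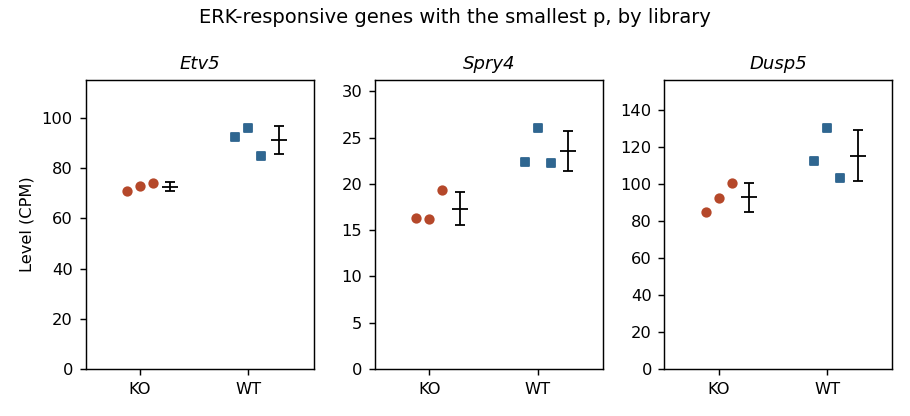
Level (CPM, y axis from 0) of Etv5, Spry4 and Dusp5 in the 3 KO (circles) and 3 WT (squares) libraries, with the mean and SD beside each group. Each KO library is below each WT library for all 3 genes, with the closest pair for Dusp5, at 100.7 CPM in KO and 103.2 CPM in WT.

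Choroid plexus markers moved with the comparison as well. Of 13 such markers 9 were lower in KO and 0 higher, their summed level was 242, 538 and 803 CPM in KO and 1638, 2563 and 2939 CPM in WT, and none was at 0. These sums did not overlap between KO and WT, nor did the levels of Hbegf, Nrg1 and Etv5. The summed markers of Purkinje cells, interneurons, oligodendrocytes and their precursors did not overlap between the groups either. Within each group the choroid plexus sums rose from replicate 1 to replicate 3, while the levels of Nrg1 fell. In that order Etv5 rose in KO only, and Hbegf fell in WT only. Replicates are numbered by accession only, and nothing is read from the order of 3 libraries. The part of choroid plexus in the levels of Hbegf, Nrg1 and Etv5 was not tested. Of 12 markers of Bergmann glia and astrocytes 0 were called by edgeR (unadjusted p under 0.05: 0 higher, 1 lower), and their sums were 5802 to 6034 CPM in KO and 5634 to 5940 CPM in WT.

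Hbegf and Nrg2 lie 307.5 kb apart on chromosome 18, with 4 tested genes between them (Pura, Igip, Cystm1 and Pfdn1), none of which was called (adjusted p = 0.179 to 0.560). Within 1 Mb of Hbegf 69 other genes were tested. Beside 0.784% higher and 0.872% lower of all genes tested, 2 of the 69 were higher and 0 lower. These were Matr3, a nuclear matrix protein gene, at 211 ± 3.04 CPM in KO and 150.5 ± 4.02 CPM in WT (adjusted p = 0.000763), and Gm36989, which lies within Matr3 and was at 3.29 ± 0.777 CPM in KO and 0.961 ± 0.234 CPM in WT (adjusted p = 0.00949). The groups did not overlap in 20 of the 69 (29.0%, beside 23.7% of all genes). Within 1 Mb of Nrg1 1 of 16 tested genes was higher, beside 0.784% of all genes, and this was the ubiquitin-regulatory-domain gene Ubxn8 (adjusted p = 0.0459). All libraries were aligned to 1 reference genome, and the part of strain variants in these counts was not tested.

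The genes whose log2 CPM most resembled that of Hbegf over the 6 libraries, by Pearson's r among protein-coding genes with a mean of at least 10 CPM, were Grsf1 (r = 0.9993), Ddx19a (r = 0.9986), Hccs (r = 0.9964), Ap5s1 (r = 0.994) and Dynlt1b (r = 0.992). The libraries fall into 2 groups for Hbegf, so that r mostly reads the gap between KO and WT. Of these, Hccs was at 40.2 ± 1.48 CPM in KO and 73.4 ± 1.03 CPM in WT and Dynlt1b at 17.7 ± 0.0670 CPM in KO and 29.3 ± 1.65 CPM in WT. Grsf1 differed far less, at 96.7 ± 1.07 CPM in KO and 107 ± 0.845 CPM in WT. The closest gene was Rnf24 for Nrg1 (r = 0.995), Mrpl55 for Nrg2 (r = 0.989), Cdipt for Nrg3 (r = 0.994) and St8sia2 for Tgfa (r = 0.998). For the receptors it was Umps for Egfr (r = 0.997), Ubac2 for Erbb2 (r = 0.973), Plekhh3 for Erbb3 (r = 0.996) and Xpnpep3 for Erbb4 (r = 0.968). These values are the highest among 10273 genes compared over only 6 libraries. Some gene can reach such an r without any link to the member, so no shared regulation is read from them.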

How the data were processed

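RNA was purified with Trizol, treated with DNase I and made into libraries with Illumina TruSeq kits, per the labels' protocols, and read as pairs of 150 bases. Per gene, the authors deposited whole-number read counts. The submitters' processing notes name STAR 2.7.5a and mm10/GRCm38, and the file names Ensembl release 102; how reads were assigned is not stated there. The column counted without strand was used, since the strand columns split evenly (49.9% to 50.0% in the first). The lines for unmapped, multimapping (3.72% to 4.29%), unassigned and ambiguous reads were left out. Names, positions and exon lengths came from GENCODE M21 (GRCm38), which matched 55227 of 55487 identifiers.

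Groups follow the strain label, and replicates are numbered by accession only. The comparison used R 4.3.3 and edgeR 4.0.16 (two-sided quasi-likelihood F test after TMM scaling, minimum count 10, minimum total 15, Benjamini-Hochberg adjustment over 18237 genes). SEs and 95% intervals come from the log2 fold change and its F statistic and rest on 3 animals a group. TPM were computed from counts and merged exon lengths, or the longest transcript as the alternative. Domains were aligned with Biopython 1.88. Alternatives were RLE and upper-quartile scaling, no filter, DESeq2 1.42.0, limma-voom 3.58.1, edgeR's exact test and each library left out. Animals are separate, but nothing says that litters were.

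The members, the 5 pathway lists, the 11 marker lists and the tests were chosen with earlier results of these data known. Named are all members, the other family ligands, called genes of each pathway list, filled up to 3 by smallest p where fewer were called, and the genes most alike; Adam17, Fos and the neighbours of Hbegf and Nrg1 were named after their values were seen. For 1 gene that the rule takes, no result is reported here. The fit was tested on simulated data of 18237 genes. It recovered 74% of 50 genes changed 1.5-fold, 86% of 50 changed 2-fold and 100% of 50 changed 4-fold. It also made 15 false calls. The simulation gave KO and WT the same dispersion per gene, while in these libraries the median SD was 0.05 in KO and 0.10 in WT. The rates may therefore differ here.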

Additional observations from a re-analysis of the deposited data

How the results depend on the processing

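Hbegf kept its direction and its call under all 12 alternatives run (log2 fold change -0.67 to -0.60). No paired analysis was possible because KO and WT samples carry no common replicate numbers in the labels. Members called lower numbered 2 in place of 1 with no filter, in edgeR's exact test and without WT replicate 3, the second being Nrg1 each time (with single libraries left out, 1 to 2). No member was called higher. Over all genes, 803 higher and 820 lower were called with no filter, 294 and 263 in DESeq2 and 495 and 405 in the exact test; with single libraries left out they ran from 28 to 959 higher and from 53 to 962 lower. In the pathway lists 2 higher and 8 lower were called with no filter, 1 and 5 in the exact test, 0 and 6 in DESeq2 and 0 and 2 in limma-voom, and with single libraries left out 0 to 2 higher and 0 to 9 lower. The log2 fold change of Erbb2 turned negative without KO replicate 3, and ran from -0.00271 to 0.132 with single libraries left out. Hbegf in WT was at 71.8 TPM with the longest transcript in place of 55.1 TPM. Dropping the filter or a library changes how many genes or libraries enter. The other alternatives keep these and change the scaling, the test or the length used. Other causes were not tested. Depth limits Btc, Areg, Epgn and Ereg, which had at most 5 counts in any library.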
